A study of Mus musculus with 12 samples.

Results

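The glypicans are a family of 6 mouse genes, Gpc1 to Gpc6, and all 6 were found by gene symbol among the 23329 genes measured in the hippocampus of NONO KO and WT mice. The family was chosen by the counts of Gpc5, whose level differed between KO and WT in these same libraries. For Gpc5 the KO and WT values that follow are therefore a description and carry no test, while the other 5 members were taken by name. Messenger RNA of adult mice of the C57BL/6 strain was sequenced in 4 groups of 3 libraries: KO CT10, WT CT10, KO CT22 and WT CT22, where CT10 and CT22 are the labels' own terms and are not explained in the sources used here. The 4 groups share the strain and the tissue and differ in genotype and CT label, and the labels name no other allele or treatment. How the Nono allele was disrupted and whether each library came from its own animal are not given, so any p-value reflects how far these libraries vary, and that variation may be technical. NONO is a nuclear RNA-binding protein of the DBHS family (Drosophila behaviour, human splicing).

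Glypicans are proteins tethered to the outer cell membrane by a glycosylphosphatidylinositol anchor, and they carry long heparan sulfate sugar chains close to the membrane. Through these chains they bind growth factors and morphogens, among them FGF, Wnt, hedgehog and BMP ligands, and hold them near to or away from their receptors. Enzymes such as Notum can cut the anchor and release a glypican from the cell. In mouse brain, Gpc4 and Gpc6 released by astrocytes are known to promote excitatory synapse formation, and Gpc5 is used as an astrocyte marker.

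The library totals were between 4435606 (KO CT22 replicate 2) and 10911046 (WT CT22 replicate 3) estimated counts. Nono averaged 0.29 ± 0.24 CPM (counts scaled to a common library size) in KO and 163 ± 7.38 CPM in WT (SD, n = 6 each), so the labels matched the targeted gene in all 12 libraries. Summed markers of hippocampal neurons, such as Prox1 and Camk2a, were between 7369 and 11180 CPM in all libraries. Summed choroid plexus markers, such as Ttr and Kl, were uneven: they reached 4907 CPM in KO CT10 replicate 1 and 5346 CPM in KO CT22 replicate 3, and the highest WT libraries, both replicate 3, had 2098 CPM at CT10 and 2194 CPM at CT22. Summed meningeal and fibroblast markers were between 221 and 738 CPM in KO and between 158 and 486 CPM in WT. These 2 tissues lie against the hippocampus, and in a bulk sample fewer cells of a type and less RNA per cell cannot be told apart.

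Gpc5 and Gpc6, and Gpc4 and Gpc3, sit in 2 neighbouring pairs in the mm10 genome. Gpc5 covers chr14:115092215-116525192 on the plus strand, a span of 1433.0 kb for a transcript of 8 exons and 2885 bases. Gpc6 follows 400.1 kb downstream at chr14:116925315-117979529, also on the plus strand. Gpc4 at chrX:52053018-52164923 and Gpc3 at chrX:52272427-52613974 lie 107.5 kb apart, both on the minus strand and on the chromosome that also holds Nono, 48815.7 kb away. Gpc1 lies alone at chr1:92831686-92860196 on the plus strand and Gpc2 at chr5:138273660-138279937 on the minus strand. In the GENCODE vM21 annotation of the same build, other genes share exon sequence with 3 of the members. Gpc5 shares 107 bases with Gm20713 and Gpc1 394 bases with Ankmy1, both on the opposite strand, and Gpc2 2350 bases with Gm43720 on its own strand. Since the use of strand in counting is not given, reads from those stretches cannot be told apart, and the Gpc2 count may hold reads of Gm43720. Ankmy1 itself had 0.23 ± 0.12 CPM in KO and 0.21 ± 0.14 CPM in WT, and Gm20713 and Gm43720 were not among the genes measured.

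The 250 bases that RefSeq places just upstream of the Gpc5 start (build GRCm38.p6, chr14:115091965-115092214, plus strand) are shown because Gpc5 was the member whose level differed, with each CG pair in capitals.
Gpc5 upstream: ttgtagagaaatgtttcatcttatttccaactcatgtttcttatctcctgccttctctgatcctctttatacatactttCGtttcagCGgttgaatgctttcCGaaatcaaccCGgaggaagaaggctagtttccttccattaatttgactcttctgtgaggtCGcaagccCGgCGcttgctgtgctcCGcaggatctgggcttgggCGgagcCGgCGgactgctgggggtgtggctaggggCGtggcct
This stretch held 12 CG pairs and was 51.2% G or C, against 19 pairs and 66.4% for Gpc2, 25 pairs and 71.6% for Gpc3, and 18 pairs and 68.4% for Gpc4. The median over all promoters of the same length was 6 pairs and 52.4%. Gpc5 was thus the least G and C rich of the 4 glypicans with an entry, and it still held more CG pairs than the median promoter. Gpc1 and Gpc6 had no entry. Motifs bound by clock transcription factors were searched on both strands of windows of 300 bases around the start: CACGTG (in 7.15% of 32851 promoters), TTATGTAA (in 0.938%) and AGGTCA (in 16.3%). None of these letters was in the Gpc5, Gpc2 or Gpc3 window, and the Gpc4 window held 1 AGGTCA.

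Gpc6 was the only member with more than 1 transcript in the files. The 2 transcripts differ by 1 exon of 30 bases, chr14:117892342-117892371, which lies in the coding sequence and adds 10 codons without shifting the frame. The exon is in capitals between 30 bases of each neighbouring exon.
Gpc6 with the exon: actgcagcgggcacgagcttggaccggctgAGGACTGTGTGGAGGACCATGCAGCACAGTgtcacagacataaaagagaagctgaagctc
Gpc6 without the exon: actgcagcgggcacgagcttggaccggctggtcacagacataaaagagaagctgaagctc

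Gpc1 was the most abundant glypican. Levels of different genes were compared in TPM, which divides by transcript length. Over the 12 libraries Gpc1, a co-receptor for FGF in mouse brain, had 89.0 TPM at the lowest, 119 at the median and 138 at the highest. Gpc4 followed with 33.3, 38.2 and 56.0 TPM, and Gpc5 with 30.1, 36.8 and 47.0 TPM. Much lower were Gpc6 with 5.24, 6.71 and 8.32 TPM, Gpc3 with 2.69, 5.11 and 10.03 TPM, and Gpc2, a glypican of developing neurons also called cerebroglycan, with 3.30, 4.52 and 6.20 TPM. The range of Gpc1 lay clear of that of Gpc4, and the range of Gpc5 clear of that of Gpc6. Gpc4 and Gpc5 overlapped, and so did Gpc6, Gpc3 and Gpc2, whose order is therefore not set by these data. Of the glypican TPM summed in each library, Gpc1 made up 56.5% at the median, Gpc4 18.7%, Gpc5 17.8%, Gpc6 3.07%, Gpc3 2.39% and Gpc2 2.18%.

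**Figure D1:**
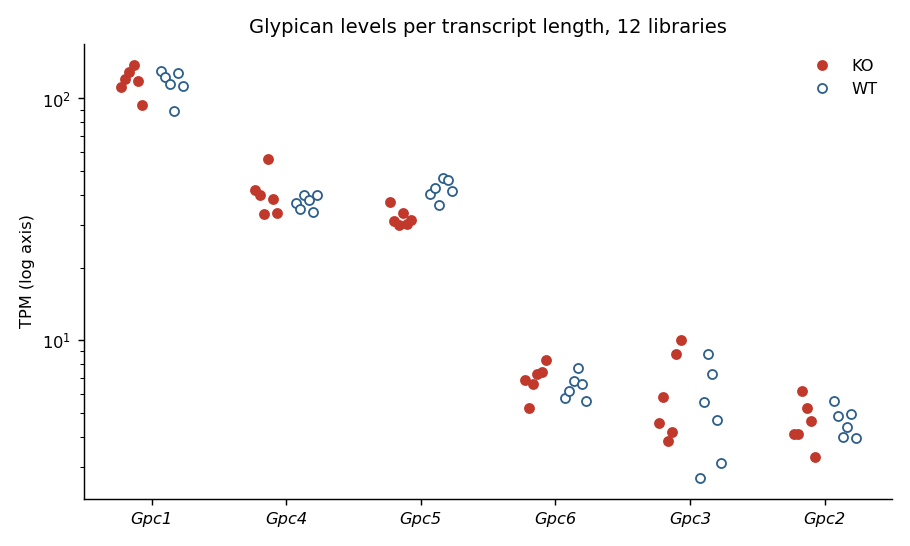
Level of each glypican in TPM (log axis), in order of the median, with filled red points for the 6 KO libraries and open blue points for the 6 WT libraries. Gpc1 lies above all others, Gpc4 and Gpc5 lie between 30.1 and 56.0 TPM, and Gpc6, Gpc3 and Gpc2 overlap.

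Gpc5 was lower in KO. In KO CT10 libraries it had 41.6, 37.0 and 33.9 CPM, against 46.9, 48.3 and 41.9 CPM in WT CT10 libraries. In KO CT22 libraries it had 37.1, 33.6 and 34.6 CPM, against 52.0, 54.0 and 50.1 CPM in WT CT22 libraries. All 6 KO libraries lay below all 6 WT libraries, but at CT10 the nearest values, 41.6 CPM in KO replicate 1 and 41.9 CPM in WT replicate 3, almost touched. The mean was 36.3 ± 2.999 CPM in KO and 48.9 ± 4.27 CPM in WT (SD, n = 6 each). The fitted difference of KO and WT was -0.43 on the log2 scale (SE 0.07) averaged over the 2 labels, -0.29 (SE 0.10) at CT10 and -0.56 (SE 0.10) at CT22, or 0.82 and 0.676 of the WT level. The authors' deposited table gives Gpc5 a log2 ratio of -0.44 for KO over WT, from the same libraries. Over all 14131 genes tested, 0.446% had no overlap between the 6 KO and the 6 WT libraries (0.262% with KO lower), 10.3% had none between KO CT10 and WT CT10 (5.43% with KO lower), and 13.7% had none between KO CT22 and WT CT22 (6.49% with KO lower). Of the same genes, 0.0212% were called in the averaged comparison, 0.00708% at CT10 and 0.0142% at CT22. Nothing is read from these shares for Gpc5, since the comparison led to its choice.

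None of the other 5 glypicans was called between KO and WT, at either label or on average. In the averaged comparison the log2 changes by edgeR's quasi-likelihood test were -0.01 for Gpc1 (SE 0.11, adjusted p = 0.992), -0.05 for Gpc2 (SE 0.17, adjusted p = 0.971), 0.14 for Gpc3 (SE 0.30, adjusted p = 0.950), 0.08 for Gpc4 (SE 0.12, adjusted p = 0.926) and 0.06 for Gpc6 (SE 0.09, adjusted p = 0.928). At CT10 all 5 adjusted p-values by edgeR were 1.00, and at CT22 the lowest was 0.646, that of Gpc3. By the same test, 0 of these 5 members reached an unadjusted p under 0.05 in any of the 3 comparisons, against 6.35% of all genes in the averaged one, 3.09% at CT10 and 10.9% at CT22, and DESeq2 called 0 of them but gave no adjusted p to Gpc2 and Gpc3 at CT22. The value of Gpc6 was 0.33 with the most abundant transcript alone and -0.01 without the library of each group with most choroid plexus marker RNA, and neither was called. The SEs limit how far this reaches. A difference as large as that of Gpc5 would be several times the SE of Gpc6, but little more than the SE of Gpc3. Nor was a change several times its SE always called by edgeR. The astrocyte marker S100b had -0.41 (SE 0.07, adjusted p = 0.0696 by edgeR) and Hgsnat, described below, 0.24 (SE 0.06, adjusted p = 0.336 by edgeR). The lack of a call alone therefore does not exclude a change of that size in these 5 members.

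**Figure D2:**
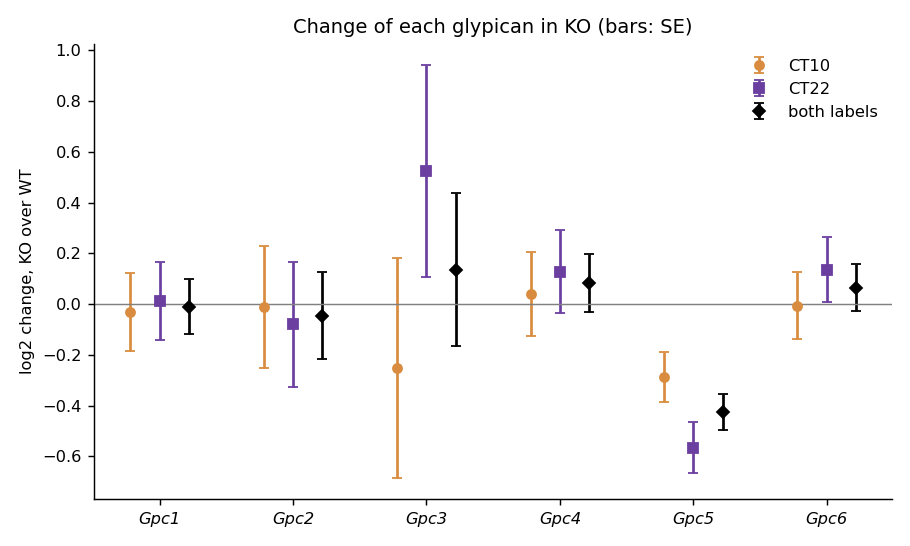
Log2 change of KO over WT for each glypican at CT10 (orange circles), at CT22 (purple squares) and averaged over both (black diamonds), with bars for the SE. Gpc5 lies at -0.29, -0.56 and -0.43, while the other 5 members have averaged values between -0.05 and 0.14.

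With Gpc5 lower and Gpc4 not, the order of these 2 genes differed between the genotypes. Gpc4 had more TPM than Gpc5 in 6 of 6 KO libraries and in 1 of 6 WT libraries. Gpc5 made up 15.6 ± 1.77% of the summed glypican TPM in KO and 20.04 ± 2.43% in WT (SD, n = 6 each). The sum itself was 209 ± 20.2 TPM in KO and 212 ± 11.02 TPM in WT, a difference well within the spread of the libraries. These shares follow from the level of Gpc5 and add no separate evidence.

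In WT, Gpc5 had a higher level at CT22 than at CT10, without passing the test. WT CT22 libraries had 50.1 to 54.0 CPM and WT CT10 libraries 41.9 to 48.3 CPM, so the groups did not overlap, as in 16.2% of all genes (7.69% with CT22 higher). The log2 change was 0.19 (SE 0.10, adjusted p = 0.729 by edgeR). In KO the groups overlapped, with 33.6 to 37.1 CPM at CT22 and 33.9 to 41.6 CPM at CT10, and the log2 change was -0.09 (SE 0.10, adjusted p = 0.977 by edgeR). The KO difference of Gpc5 at CT22 minus that at CT10 was -0.28 on the log2 scale (SE 0.14). It is built from the values by which Gpc5 was chosen and is given without a test. It was -0.15 without the library of each group with most choroid plexus marker RNA.

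No glypican was called between the CT labels in either genotype, nor any of the 5 others than Gpc5 in the difference of the KO effect. In these comparisons edgeR gave 0 of them an unadjusted p under 0.05, and DESeq2 called 0. Over all genes edgeR called 0 in each of these 3 comparisons, with 955 genes (6.76%) at an unadjusted p under 0.05 in WT, 447 (3.16%) in KO and 861 (6.09%) for the difference, and DESeq2 called 4, 0 and 0. Gpc6 was the other member whose groups separated: it had 18.9, 19.3 and 21.6 CPM in KO CT22 libraries, against 18.1, 14.7 and 17.7 CPM in KO CT10 libraries. Its log2 change was 0.24 (SE 0.13, adjusted p = 0.977 by edgeR), and 7.96% of all genes were separated in that comparison, 4.3% with CT22 higher. In WT the levels of Gpc6 overlapped, with 20.2, 18.3 and 16.0 CPM at CT22 and 15.8, 16.7 and 18.5 CPM at CT10.

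**Figure D3:**
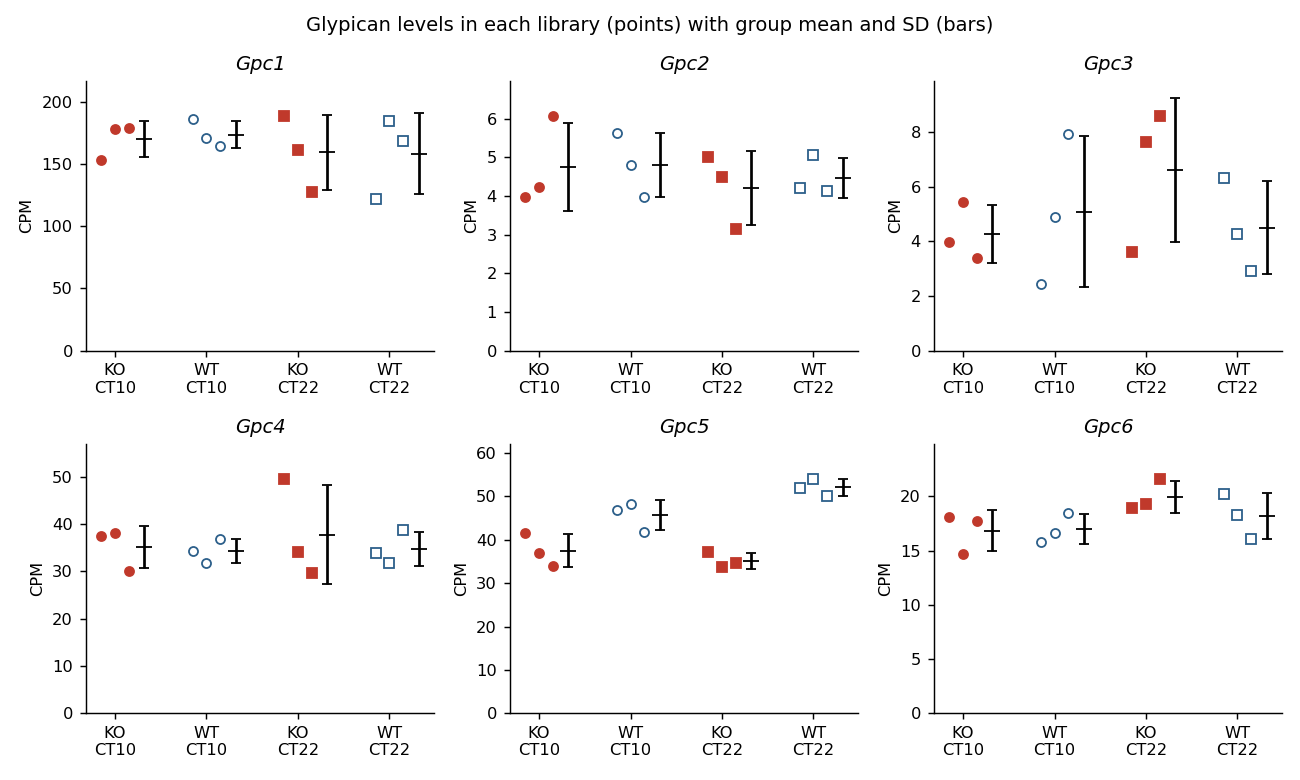
CPM of each glypican in the 3 libraries of each group (points, replicates 1 to 3 from left to right; filled red for KO, open blue for WT, circles for CT10, squares for CT22), with the group mean and SD as black bars. The KO points of Gpc5 lie below the WT points at both labels, and the points of the other 5 members overlap between KO and WT.

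Gpc1 varied between libraries more than between groups. It had 153, 178 and 179 CPM in KO CT10 and 186, 171 and 164 CPM in WT CT10, and 188, 162 and 128 CPM in KO CT22 and 122, 184 and 168 CPM in WT CT22. One library of each genotype at CT22, KO replicate 3 and WT replicate 1, was low. Both also had low summed hippocampal neuron markers, 7369 CPM in KO CT22 replicate 3 and 8563 CPM in WT CT22 replicate 1, the lowest of their groups. Over the 12 libraries the log2 level of Gpc1 went with the log2 sum of these neuron markers with Pearson's r = 0.85 (0.86 for deviations from the group means), and with the meningeal sum with r = -0.72. These correlations describe 12 points that share library and depth, and whether the make-up of the tissue piece sets them was not tested.

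Gpc4 had 37.4, 38.0 and 30.1 CPM in KO CT10 and 34.2, 31.8 and 36.7 CPM in WT CT10. At CT22 it had 49.5, 34.1 and 29.6 CPM in KO and 33.8, 31.7 and 38.8 CPM in WT. KO CT22 replicate 1 stood above all other libraries and was the source of most of the spread. Without it the log2 change of KO and WT at CT22 was -0.15 in place of 0.13, neither of which was called. That library also had the lowest oligodendrocyte precursor sum, 391 CPM, against 444 to 561 CPM in the others. It stood apart in other lists too. Its hippocampal neuron sum, 11180 CPM, was the highest, and its oligodendrocyte, interneuron and choroid plexus sums, 3983, 1122 and 235 CPM, were the lowest. Gpc4 went with the precursor sum with r = -0.72 over the 12 libraries and -0.37 over 11 without that library. Over the 12 it had r = 0.53 with the neuron sum and -0.55 with the interneuron sum. Which of these lists goes with Gpc4 was not tested.

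Gpc3, which inhibits hedgehog signalling in mouse and is mutated in human Simpson-Golabi-Behmel syndrome, was the most variable member. It had 3.97, 5.45 and 3.38 CPM in KO CT10 and 2.43, 4.90 and 7.93 CPM in WT CT10, and 3.61, 7.62 and 8.58 CPM in KO CT22 and 6.30, 4.28 and 2.93 CPM in WT CT22. Its coefficient of variation over the 12 libraries was 40.4%, against the 16.5% that counting error alone gives for its 19 to 71 counts. The highest library, KO CT22 replicate 3, had 71 counts, with an exact 95% Poisson interval of 55.4 to 89.6 that covers counting error only. The lowest, WT CT10 replicate 1, had 19 counts, with an interval of 11.4 to 29.7. The spread thus exceeded counting error, and no difference by genotype or CT label passed the test. KO CT22 replicate 3 also had the highest meningeal sum of all libraries, 738 CPM, and WT CT10 replicate 1 the lowest, 158 CPM, and over the 12 libraries Gpc3 went with that sum with r = 0.62. The gene most like Gpc3 over the libraries was Col6a2, a collagen of connective tissue (r = 0.92), at 6.13 to 29.7 CPM.

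Gpc2 had 3.97, 4.24 and 6.06 CPM in KO CT10 and 5.62, 4.79 and 3.97 CPM in WT CT10, and 5.01, 4.48 and 3.14 CPM in KO CT22 and 4.202, 5.05 and 4.12 CPM in WT CT22. Its 20 to 52 counts a library give a coefficient of variation of 16.9% from counting error, and the one measured was 17.5%. Its spread between libraries was therefore about the size of counting error.

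Gpc6, which is mutated in human omodysplasia, went with the meningeal and fibroblast sum more closely than any other member with any of the 10 marker lists, with r = 0.86 (0.91 for deviations from the group means). Gpc6 was highest in KO CT22 replicate 3, with 21.6 CPM beside a meningeal sum of 738 CPM. In WT it was highest in CT22 replicate 1, with 20.2 CPM beside 486 CPM. Its lowest values were 14.7 CPM in KO CT10 replicate 2, beside 221 CPM, and 15.8 CPM in WT CT10 replicate 1, beside 158 CPM. The meningeal list held 18 genes, of which 17 were higher in KO and 1 lower on average (median log2 change 0.63, 0 called), among them Dcn and Col1a2, and none was at 0 on average in either genotype. The higher Gpc6 values of KO CT22 libraries stood beside meningeal sums of 393 to 738 CPM in KO CT22, against 221 to 494 CPM in KO CT10, and the part of these cells in the difference was not tested. The gene most like Gpc6 was Fat1, a giant cadherin (r = 0.94).

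**Figure D4:**
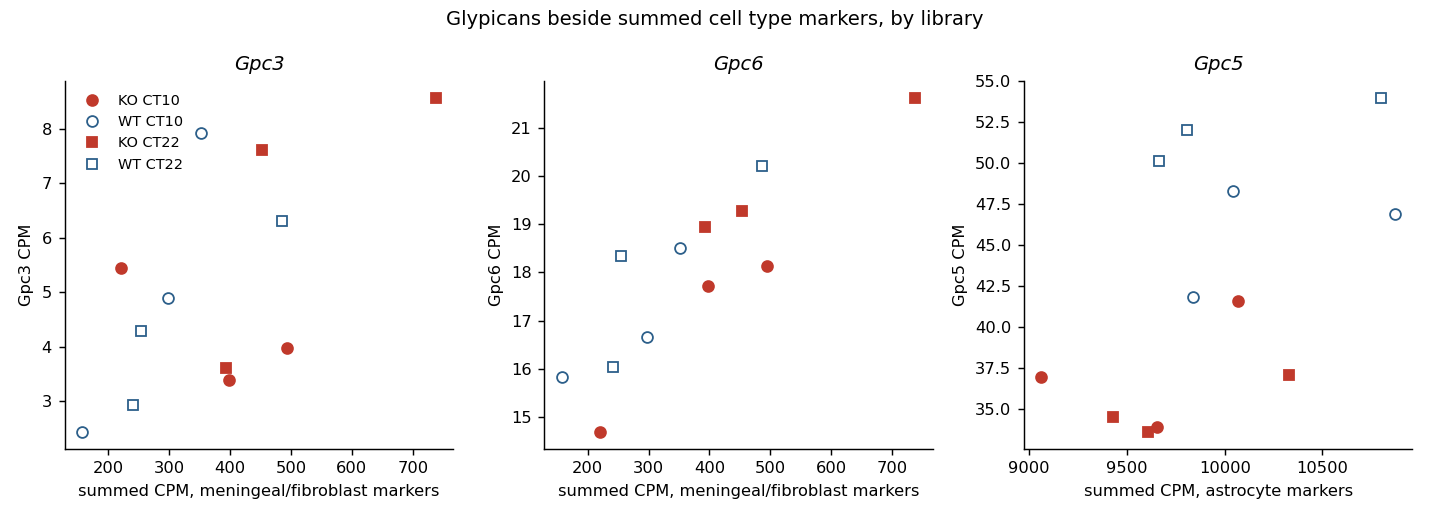
CPM of Gpc3 and Gpc6 against the summed CPM of meningeal and fibroblast markers, and of Gpc5 against that of astrocyte markers, 1 point a library (filled red for KO, open blue for WT, circles for CT10, squares for CT22). Gpc6 was higher where the meningeal sum was higher (r = 0.86). The sums of astrocyte markers overlap between KO (9062 to 10330 CPM) and WT (9666 to 10870 CPM).

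Gpc1 and Gpc2 went together over the 12 libraries (r = 0.71), and so did Gpc3 and Gpc6 (r = 0.58), while Gpc1 and Gpc6 went opposite ways (r = -0.66). Gpc5 followed none of the other members, with r between -0.32 and 0.10. Gpc4 and Gpc3, neighbours on the X chromosome, had r = -0.27, and Gpc5 and Gpc6, neighbours on chromosome 14, r = -0.21. The genes most like the others were Clvs2 for Gpc1 (r = 0.98), Rlbp1 for Gpc2 (r = 0.89) and Zmynd11 for Gpc4 (r = 0.89), out of 13074 genes compared. Each of these, like Col6a2 and Fat1 above, was picked as the highest, so its r is no separate evidence. The spread of Gpc2 was about the size of counting error, which limits what its correlations show.

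For Gpc5 the 5 most alike genes were Rcc1 (r = 0.90), 2900052N01Rik (r = 0.88), Ephx2 (r = 0.87), 2610034B18Rik (r = 0.86) and Arl2bp (r = 0.86). All 5 were lower in KO, with log2 changes between -0.17 and -0.60, so this likeness repeats the difference between genotypes. Rcc1, which charges the small GTPase Ran with GTP, averaged 10.8 ± 0.89 CPM in KO and 13.1 ± 0.52 CPM in WT (SD, n = 6 each). After each group's mean was taken out, the most alike were Prkd2 (r = 0.96), Kcnj10 (r = 0.94), Gpr137b-ps (r = 0.93), Sspn (r = 0.93) and Mettl15 (r = 0.92). Kcnj10, the main inward rectifier potassium channel of astrocytes, averaged 251 ± 13.2 CPM in KO and 248 ± 18.2 CPM in WT. It moved with Gpc5 from library to library within the groups and had a log2 change of 0.02 between KO and WT. Since it was picked as among the highest of 13074 genes over 12 libraries, its r is no separate evidence, and whether astrocytes set it was not tested.

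Since Gpc5 marks astrocytes, its difference was set beside a list of other astrocyte markers. That list was chosen with earlier results of these data known, so what follows is a description of its 20 markers. Of these, 15 were lower and 5 higher in KO (median log2 change -0.12, against 0.01 for all genes), and edgeR called 0, with 1 higher and 8 lower at an unadjusted p under 0.05, where 6.35% of all genes stood. DESeq2 called 2 as lower, S100b and Ndrg2, of 22 genes it called among the 14131. S100b, a calcium-binding protein, averaged 92.9 ± 10.1 CPM in KO and 123 ± 8.05 CPM in WT, and all 6 KO libraries lay below all 6 WT libraries (log2 change -0.41, SE 0.07, adjusted p = 0.0696 by edgeR). Ndrg2 averaged 736 ± 43.9 CPM in KO and 928 ± 77.4 CPM in WT, again without overlap (log2 change -0.33, SE 0.06, adjusted p = 0.0796 by edgeR). Mlc1 (219.9 to 239.1 CPM in KO, 247.5 to 279.5 CPM in WT) and Acsbg1 (154.3 to 172.0 CPM in KO, 172.1 to 184.3 CPM in WT) did not overlap either. The rest of the 20 markers overlapped, and 0.262% of all genes had KO below WT without overlap. Sox9, a transcription factor of astrocytes, had 33.5 ± 4.51 CPM in KO and 26.9 ± 4.98 CPM in WT (log2 change 0.33, SE 0.09, adjusted p = 0.460 by edgeR).

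The markers' log2 changes spanned -0.41 to 0.33, and that of S100b differed from the -0.43 of Gpc5 by less than the SE of either. Over all genes tested, 167 had a more negative change than Gpc5. The markers' summed level was 9062 to 10330 CPM in KO libraries and 9666 to 10870 CPM in WT libraries, which overlap. Gpc5 had 3.75 ± 0.28 CPM for each 1000 CPM of summed astrocyte markers in KO and 4.81 ± 0.44 in WT (SD, n = 6 each), with ranges of 3.50 to 4.13 in KO and 4.26 to 5.30 in WT. Slc1a2 made up 30.3% of that sum and Glul 17.4%, with log2 changes of 0.13 and -0.16, while S100b made up 1.09%. These ratios rest on the values by which Gpc5 was chosen and are a description. Over the 12 libraries the median r of the astrocyte markers with Gpc5 was 0.48, or 0.30 for deviations from the group means, against 0.00 and 0.03 for all genes. The microglia markers gave 0.41 and 0.30. With the log2 marker sums, the measure used above for other members, the order of these lists depended on the measure. Over the 12 libraries Gpc5 had r = 0.74 with the microglia sum, its highest with any marker list, and r = 0.54 with the astrocyte sum. For deviations from the group means it had r = 0.5 with the microglia sum and 0.58 with the astrocyte sum. Of the 15 microglia markers, such as Cx3cr1 and P2ry12, 13 were lower and 2 higher in KO (median -0.10, 0 called). By edgeR 3 were lower and 0 higher at an unadjusted p under 0.05, against 6.35% of all genes. At CT22 6 were lower and 0 higher at that level, against 10.9% of all genes, and at CT10 0, against 3.09%. The sums overlapped at CT10, with 565 to 639 CPM in KO and 612 to 669 CPM in WT. At CT22 they did not, with 543 to 581 CPM in KO and 590 to 688 CPM in WT. The part of either cell type in the Gpc5 difference was not tested.

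None of the nearest protein-coding genes tested beside the glypican pairs was called, and noncoding genes there were not looked at. Nearest does not mean close: Slitrk5, a synaptic adhesion gene before Gpc5, lies at chr14:111675115-111683144, while Gpc5 starts at 115092215. It averaged 101 CPM over the 12 libraries (log2 change 0.04, SE 0.07, adjusted p = 0.942 by edgeR). Slitrk6 before it (0.32, SE 0.44) and Tgds behind Gpc6 (-0.15, SE 0.15) were not called either. Beside the X-linked pair, Phf6 (-0.05, SE 0.10) and Ccdc160 (0.27, SE 0.29) were not called. Dct, Usp26 and 1700080O16Rik were too low to be tested.

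Genes that build, trim and answer to heparan sulfate were examined in 9 lists of 166 genes in all, of which 152 were tested. The lists are broad and also hold genes such as Bcan, which carries chondroitin sulfate, and Gria1 and Gria2. In the averaged comparison of KO and WT edgeR called 0 of the 152, and 20 (13.2%) had an unadjusted p under 0.05, against 6.35% of all genes. DESeq2 called 1, Bmper. At CT22 the share was 13.8% against 10.9% of all genes, and at CT10 5.26% against 3.09%. The members of a list are not independent of each other, and these shares were not tested.

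Of the 11 genes tested that start and extend the heparan sulfate chain, 4 were higher and 7 lower in KO (median log2 change -0.003, 0 called). Ext1, a subunit of the chain polymerase, averaged 34.6 ± 2.88 CPM in KO and 38.8 ± 2.89 CPM in WT (log2 change -0.16, SE 0.07, adjusted p = 0.730 by edgeR). Fam20b, the kinase of the linker xylose, had a change of -0.12 (SE 0.06), and B3gat3, which adds the last linker sugar, -0.13 (SE 0.07). Of 17 genes that sulfate or epimerise the chain, 11 were higher and 6 lower (median 0.02, 0 called). Papss2, which makes the sulfate donor, averaged 20.5 ± 1.69 CPM in KO and 24.7 ± 2.54 CPM in WT (log2 change -0.27, SE 0.09, adjusted p = 0.597 by edgeR). The sulfotransferase gene Hs2st1 averaged 55.3 ± 2.34 CPM in KO and 49.0 ± 3.98 CPM in WT (log2 change 0.18, SE 0.06, adjusted p = 0.667 by edgeR), and Ndst3 had a change of -0.26 (SE 0.22).

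Of 15 genes that remodel or break down the chain or release glypicans, 10 were higher and 5 lower (median 0.07, 0 called). Hgsnat, a lysosomal enzyme of heparan sulfate breakdown, averaged 69.1 ± 2.62 CPM in KO and 58.6 ± 3.50 CPM in WT. Its 6 KO libraries, at 65.6 to 71.7 CPM, lay above its 6 WT libraries, at 52.2 to 62.0 CPM, as did those of 0.184% of all genes, but it was not called (log2 change 0.24, SE 0.06, adjusted p = 0.336 by edgeR). Sulf2, which removes sulfate groups outside the cell, had a change of 0.16 (SE 0.08), and Notum, the lipase that releases glypicans, 0.36 (SE 0.21) at a mean of 3.57 CPM.

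Of 16 genes of other proteoglycans, 12 were higher and 4 lower (median 0.06, 0 called). Hspg2, perlecan of the basement membrane, had a change of 0.44 (SE 0.18), Sdc4, a syndecan, -0.21 (SE 0.10), and Bcan, the brevican of perineuronal matrix, which carries chondroitin sulfate, -0.12 (SE 0.07). A list of 11 genes named as synaptic partners took in Gria1, Gria2, Nptx1, Lrrtm1 and Lrrtm2. Whether each member binds a glypican was not examined. Of these 11 genes, 9 were higher and 2 lower (median 0.07, 0 called). At CT22 10 were higher and 1 lower (median 0.21, 0 called), and at CT10 4 were higher and 7 lower (median -0.05, 0 called). Between the labels, 1 was higher and 10 lower at CT22 than at CT10 in WT (median -0.16, 0 called), and 10 were higher and 1 lower in KO (median 0.12, 0 called). The WT CT22 libraries enter both the KO comparison at CT22 and the WT comparison of the labels, so these counts are not separate evidence. The other proteoglycans had 12 higher and 4 lower in KO at CT22 (median 0.20, 0 called), and 7 higher and 9 lower at CT10 (median -0.05, 0 called). Gpr158, an orphan receptor that binds Gpc4 in mouse, had 116 to 160 CPM in KO libraries and 95.2 to 141 CPM in WT libraries, with a change of 0.41 at CT22 (SE 0.10, adjusted p = 0.377 by edgeR) and -0.07 at CT10 (SE 0.10). Lrrtm2, a postsynaptic adhesion protein, and Ptprd, a presynaptic receptor phosphatase, had averaged changes of 0.22 (SE 0.11) and 0.19 (SE 0.10).

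Of the signalling genes, 9 FGF genes were higher and 8 lower (17 tested, median 0.00), 8 hedgehog genes higher and 8 lower (16 tested, median 0.01), 17 Wnt genes higher and 11 lower (28 tested, median 0.07) and 15 BMP genes higher and 6 lower (21 tested, median 0.09), and edgeR called 0 in each. Bmper, a secreted BMP-binding protein, averaged 11.1 ± 1.17 CPM in KO and 6.89 ± 0.83 CPM in WT. All its KO libraries, at 9.39 to 12.1 CPM, lay above all its WT libraries, at 5.88 to 8.30 CPM, as did those of 0.184% of all genes. Its log2 change was 0.68 (SE 0.12, adjusted p = 0.0696 by edgeR), and this was the member that DESeq2 called. Bmp3 had a change of 0.60 (SE 0.20) and Id3, a target of BMP signalling, 0.21 (SE 0.07). Among the Wnt genes, the receptor Ror1 had a change of 0.56 (SE 0.18), the secreted inhibitor Sfrp1 0.60 (SE 0.23) and Wnt2 -0.44 (SE 0.18). Among the FGF genes, Fgf10 had -0.25 (SE 0.10), and the feedback inhibitors Spry2 and Spry4 had 0.10 (SE 0.06) and 0.26 (SE 0.17). The hedgehog co-receptors Cdon and Boc had 0.24 (SE 0.12) and -0.15 (SE 0.10), and Hhip, a hedgehog-binding protein, 0.23 (SE 0.19).

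For Gpc6 the files split the reads between the transcripts with and without the 30-base exon, and the 2 estimates they give of this split differed. By the estimated counts the share with the exon was 26.0%, 0% and 57.4% in KO CT10, 0%, 100% and 29.5% in WT CT10, 0%, 0% and 21.7% in KO CT22, and 0%, 36.6% and 28.1% in WT CT22. It was 0% in 5 libraries and 100% in 1. A second estimate in the same files, the posterior mean, gave 27.6% to 71.6% in the same libraries and never 0%. The files also give lower and upper bounds, whose level is not stated in their headers. The lower bound, scaled to TPM, for the transcript with the exon was under 0.1 TPM in 6 of 12 libraries, and that for the other transcript in 4 of 12.

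**Figure D5:**
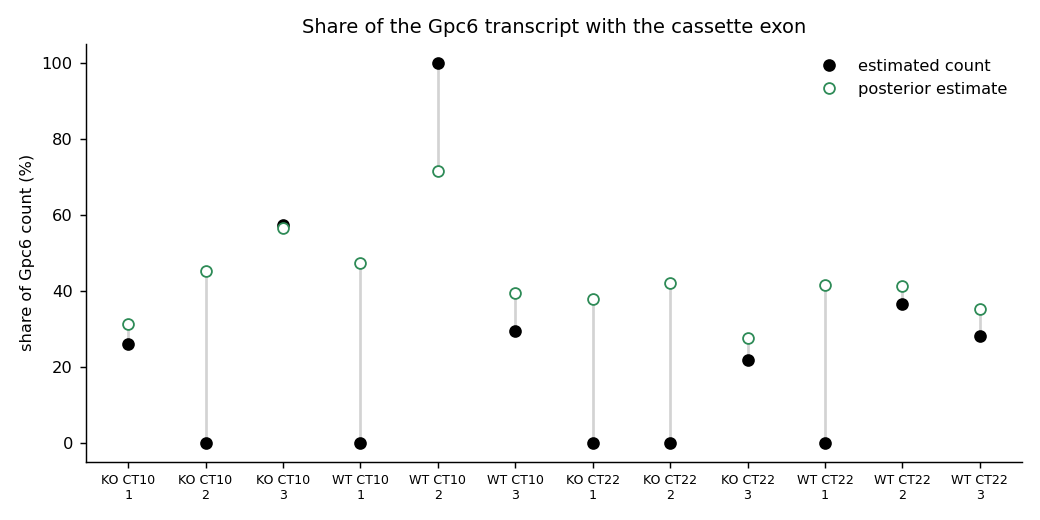
Share of the Gpc6 count given to the transcript with the 30-base exon in each library, by the estimated count (black) and by the posterior estimate (open green), in percent. The estimated count runs between 0% and 100%, the posterior estimate between 27.6% and 71.6%.

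The share with the exon averaged 17.5 ± 22.8% in KO and 32.4 ± 36.6% in WT by the estimated counts (SD, n = 6 each; two-sided exact permutation test, p = 0.416, adjusted p = 0.416). The difference of -14.9 percentage points was -1.34 without WT CT10 replicate 2, the library at 100%. The share averaged 14.4 ± 16.5% at CT22 and 35.5 ± 38.2% at CT10 (exact permutation p = 0.284, adjusted p = 0.416), a difference of -21.1 percentage points that was -8.19 without the same library. By the posterior estimate, an alternative chosen after the data were seen, it averaged 40.0 ± 10.4% in KO and 46.1 ± 13.1% in WT (exact permutation p = 0.426, adjusted p = 0.426), and 37.6 ± 5.60% at CT22 and 48.6 ± 14.1% at CT10 (exact permutation p = 0.106, adjusted p = 0.212). The smallest p this test can give is 0.00216.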

How the data were processed

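Hippocampal RNA was sequenced in 12 libraries on an Illumina HiSeq after TruSeq Stranded mRNA preparation, per the labels' protocols. The submitters' processing notes name FastQC, TopHat 1.3.3, RSEM 1.2.5, edgeR 3.0.6 and the build mm10. Strand settings are not given in the sources used here. Each library's deposited file gives estimated counts, TPM, posterior estimates, and lower and upper bounds of an expression signal per length (scaled here to TPM), for 30383 transcripts, as the authors made them. The authors' deposited table of KO over WT gives log2 ratios and adjusted p-values.

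Estimated counts were summed per gene and rounded. Genes passing filterByExpr (minimum count 10; 14131 genes, all 6 glypicans among them) were fitted with edgeR 4.0.16 (TMM factors 0.979 to 1.021, 4 group means, robust quasi-likelihood, 8 residual degrees of freedom, Benjamini-Hochberg over all genes tested, threshold 0.05). The SE of a change was computed from the fitted change and its F statistic. DESeq2 1.42.0 was an alternative. CPM used TMM library sizes, with a prior count of 2 for correlations only. The fit was checked on simulated counts. Replicate libraries differed by more than sampling noise, so none was merged.

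The members, gene lists and tests were chosen with earlier results of these data known. The difference of the KO effect between labels was planned as a test and is given for Gpc5 without one, since it uses the values of the choice. Genes named from a list were its members called, or else the 3 with the smallest unadjusted p at a mean of at least 2 CPM. Mlc1 and Acsbg1 were added because their KO and WT libraries did not overlap. Nearest genes were ranked by Pearson's r of log2 CPM, and neighbours were taken from the order of the protein-coding genes. Protein sequences were not used here.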

Additional observations from a re-analysis of the deposited data

Results flagged for a closer look

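One glypican value stood apart from its group. The lowest KO library for Gpc1, CT22 replicate 3, had 128 CPM, and its gap to the next one was 0.418 of the whole KO range, within Dixon's limit for groups of 6. The lowest WT library, CT22 replicate 1, had 121.8 CPM, and its gap was 0.663 of the WT range, past that limit. The 6 genes in 2 genotypes give 12 such groups, and chance marks about 1 in 20.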

How the results depend on the processing

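Over all alternatives 601 tested glypican values were recomputed. Of these, 534 kept direction and side of the threshold, 0 gained or lost a call, and 67 that were never called changed sign or moved beyond the libraries' spread. DESeq2 gave no adjusted p to 2 further values, those of Gpc2 and Gpc3 in KO against WT at CT22. The 75 recomputed values of Gpc5 between KO and WT, which carry no test, kept their sign. The log2 difference of Gpc5 in KO lay between -0.50 and -0.39 on average, -0.43 and -0.22 at CT10 and -0.62 and -0.54 at CT22. The CT10 value of -0.43 came from leaving out from each group the library with most choroid plexus marker RNA. At CT10 this removes KO replicate 1 and WT replicate 3, and without KO CT10 replicate 1 alone the value was -0.365. Counts of all genes called moved more. In KO against WT on average, 10 genes were called with no filter on low counts, 22 by DESeq2, 1 without the choroid-high libraries, and 1 to 8 with each library left out (8 without WT CT22 replicate 1). At CT10 the count was 2 with the most abundant transcript alone, 3 by DESeq2, and 4 in a fit of only the 6 libraries compared. At CT22 it was 1 with the most abundant transcript alone, 1 without the choroid-high libraries, 30 by DESeq2, 1 in a fit of only 6 libraries, and 1 to 4 with each library left out (4 without WT CT22 replicate 1). For CT22 against CT10 in WT it was 1 with the most abundant transcript alone, 4 by DESeq2, 2 in a fit of only 6 libraries, and 0 to 1 with each library left out. The cause was not tested. With the replicate number as a block, the count was 1 on average and 1 at CT22. Whether the numbers pair the samples was not settled. Of 18 same-numbered pairs, 4 had correlations over 0.1 (range -0.237 to 0.328), and pairs with different numbers were not set beside them. DESeq2's size factors moved the median log2 change of all genes by under 0.01. Counting error limited Gpc2 most, since it was about as large as the spread between libraries, while Gpc3 varied more than its depth gives.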
